A study of Drosophila melanogaster with 12 samples.

Results

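The mitochondrial ribosomal protein genes were read in tracheae of adult flies, tracheae of larvae and whole flies of *Drosophila melanogaster*. They were taken by name: every gene whose symbol is mRpL (large subunit) or mRpS (small subunit) followed by a number, which gave 73 of the 17697 genes in the files, 47 of the large and 26 of the small subunit. All 73 had reads in all 12 libraries, with a lowest count of 20 exon reads in a library, and all 73 passed the filter on low counts in each comparison.

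The mitochondrial ribosome translates the few messenger RNAs of the mitochondrial genome, all of which encode subunits of the respiratory chain and of ATP synthase. Its ribosomal RNAs are made in the mitochondrion, whereas its proteins are encoded in the nucleus, made on cytosolic ribosomes and imported. The small subunit binds the messenger RNA and decodes it, and the large subunit holds the peptidyl transferase centre, the tunnel through which the new chain leaves, and the L1 and L7/L12 stalks that contact transfer RNAs and elongation factors. Tracheae are the air-filled epithelial tubes of insects, and those of the adult are rebuilt during metamorphosis.

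The groups were adult trachea (from head, thorax and abdomen of females 5 to 7 days old), larval trachea (from 3rd instar larvae of mixed sex, mid-stage and not yet wandering) and whole fly (intact adult females, also 5 to 7 days old), with 4 libraries each. All animals were of the w1118 genotype, a white-eyed stock used as wild type, and 3 animals were pooled per library. The study set adult trachea against whole fly and against larval trachea, and the third pairing, larval trachea against whole fly, was added here with earlier results of these data known. Whole flies contain tracheae and every other organ, ovaries included, and a whole-fly library is therefore a mixture. In such bulk samples, fewer cells of a type and less RNA per cell cannot be told apart. The labels do not say that replicates came from separate cultures, so p-values measure the spread between these samples only.

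A library held 5139980 to 14962142 gene reads in adult trachea, 5017919 to 8169848 in larval trachea and 5397732 to 9880844 in whole fly. The 20 most abundant genes took 18.6 to 48.4% of the gene reads in adult trachea, 30.7 to 38.8% in larval trachea and 14.5 to 15.3% in whole fly. Summed RPKM (exon reads scaled by exon length and library size) of 8 tracheal markers was 20.3 to 49.8 in adult trachea, 603 to 1756 in larval trachea and 9.54 to 21.6 in whole fly. The adult tracheal libraries also held transcripts of other organs: 7 fat body markers summed to 39002 to 84761 RPKM there, to 7.31 to 30.6 in larval trachea and to 13627 to 17117 in whole fly. Eggshell and ovary markers summed to 450, 267, 29.6 and 7689 RPKM in adult tracheal replicates 1 to 4, to 0.270 to 0.951 in larval trachea and to 4090 to 5130 in whole fly. Midgut markers summed to 1077 to 7536 RPKM in adult trachea, 2.67 to 34.2 in larval trachea and 34888 to 38052 in whole fly. Muscle markers summed to 308 to 944, 17.6 to 345 and 281 to 414 RPKM in adult trachea, larval trachea and whole fly, neuronal markers to 5.92 to 48.1, 0.342 to 1.15 and 1.52 to 2.82, and haemocyte markers to 28.7 to 72.7, 4.51 to 16.1 and 2.22 to 3.31. At 0 RPKM in all libraries of a group were *nos*, *vas*, *bam*, *Cp18*, *Vm26Aa* and *Vm26Ab* (of 9 eggshell and ovary markers), *TpnC4*, *Jon44E* and *brp* in larval trachea, and *trh*, a tracheal marker, and *Fbp1* in whole fly. Their part in the results on the mitochondrial ribosomal protein genes was not tested.

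In the deposited RPKM the mitochondrial ribosomal protein genes were low in both tracheal groups. Summed over the 73 genes, RPKM was 2613, 3333, 1325 and 4812 in the adult tracheal libraries (3021 ± 1454, SD, n = 4), 1551, 2152, 2363 and 1993 in the larval tracheal libraries (2015 ± 344) and 7008, 7957, 7563 and 6503 in the whole-fly libraries (7258 ± 636). All 8 tracheal sums lay under all 4 whole-fly sums, and the adult and larval sums overlapped. The mean of the adult sums was 0.416 times, and that of the larval sums 0.278 times, the whole-fly mean. As a share of all exon reads the genes took 0.123 to 0.427% in adult trachea, 0.147 to 0.217% in larval trachea and 0.571 to 0.694% in whole fly.

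**Figure D1:**
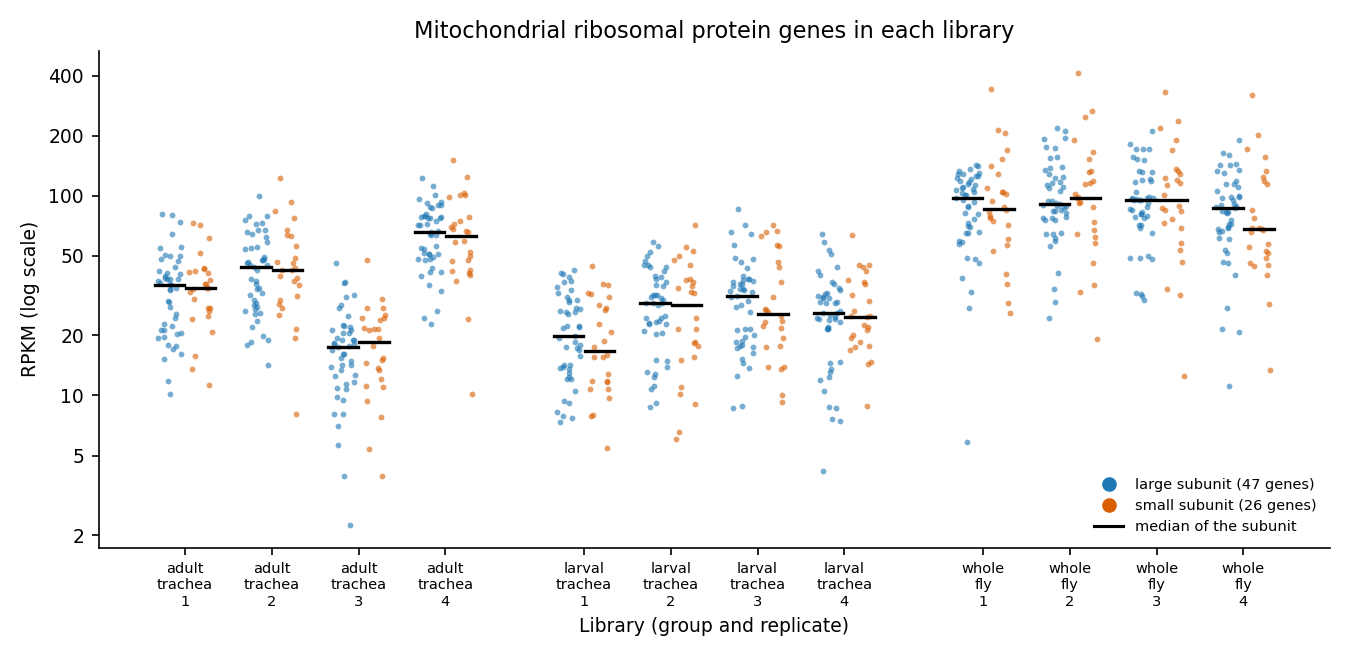
RPKM of the 73 genes (log axis) in each of the 12 libraries, large-subunit genes in blue and small-subunit genes in orange, with the median of each subunit in a library as a bar. The library medians over all 73 genes, not drawn, were 17.6 to 65.9 RPKM in adult trachea, 18.7 to 29 in larval trachea and 82.0 to 95.5 in whole fly.

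The adult libraries spread most. Adult tracheal replicate 3 held the lowest of the 4 adult RPKM values for 68 of the 73 genes and replicate 4 the highest for 64. These counts were not made over all genes. In replicate 3 the 20 most abundant genes took 48.4% of the gene reads. Its TMM normalization factor in the fit with whole fly was 0.597, beside 0.792, 1.11 and 0.979 in replicates 1, 2 and 4. Replicate 3 was also lowest and replicate 4 highest in summed RPKM of other gene lists described below. These were mitochondrial aminoacyl-tRNA synthetases (59.4 and 148), translation factors (86.7 and 296) and mitochondrial DNA and RNA genes (63.5 and 342). So were cytosolic ribosomal protein genes (81028 and 180632) and oxidative phosphorylation genes (21714 and 44593). Tracheal (49.8 and 20.3) and neuronal markers (48.1 and 5.92) went the other way. The spread was thus seen beyond the members, and its cause was not tested. The median coefficient of variation (CV, SD over mean) of a gene was 53.6% in adult trachea, 29.4% in larval trachea and 20.8% in whole fly. *mRpL14*, a core protein at the subunit interface, had the largest adult CV, 83.5%, with 17.9, 28.4, 15.5 and 77.8 RPKM. The largest larval CV, 76.0%, was that of *mRpL20*, which had 14.3, 31.2, 85.7 and 32.1 RPKM. In whole fly it was that of *mRpL48*, 66.4%, with 5.86, 83.5, 48.6 and 82.0 RPKM. Replicate 4 was thus the highest adult library of *mRpL14*, replicate 3 the highest larval library of *mRpL20* and replicate 1 the lowest whole-fly library of *mRpL48*.

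Within a group most members were read at similar levels. Mean RPKM had a median over the 73 genes of 38.5 in adult trachea, 27.2 in larval trachea and 93.1 in whole fly, and 66, 63 and 63 genes lay within 2-fold of it. The highest mean was 6.54 times the lowest in adult trachea, 6.75 times in larval trachea and 19.8 times in whole fly. Across the 73 genes, mean RPKM correlated between adult trachea and whole fly with a Pearson r of 0.811 (Spearman rho 0.819), between adult and larval trachea with 0.831 (0.817) and between larval trachea and whole fly with 0.697 (0.714). Genes are not independent replicates, they share libraries, and these values are a description.

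The most abundant member in every group was *mRpS18A* (FBgn0051450), whose mammalian homologue sits in the large subunit despite its name. It lies on chromosome arm 3R from 8561917 to 8562593 on the minus strand (BDGP6, the files' build), with 2 exons. Its RPKM was 73.3, 123, 48.0 and 152 in adult trachea, 44.4, 50.1, 65.9 and 63.8 in larval trachea and 342, 411, 331 and 321 in whole fly, and no tracheal library reached the lowest whole-fly value. Relative to the median member of the same library it stood at 2.51 ± 0.356 in adult trachea, 2.24 ± 0.357 in larval trachea and 3.85 ± 0.411 in whole fly (SD, n = 4), so its lead over the other members was widest in whole fly.

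The next 4 by mean RPKM over the 12 libraries were *mRpS10*, *mRpS24* and *mRpS26* of the small subunit and *mRpL12*, the protein that forms the L7/L12 stalk. *mRpS10*, a protein of the small-subunit head, had 34.5, 77.7, 23.8 and 124 RPKM in adult trachea, 27.5, 53.2, 56.2 and 42.2 in larval trachea and 208, 266, 236 and 157 in whole fly. *mRpS24* had 71.7, 67.7, 17.6 and 101 RPKM in adult trachea, 28.4, 55.2, 71.7 and 45.1 in larval trachea and 213, 248, 169 and 201 in whole fly. *mRpS26*, a protein particular to mitochondrial ribosomes, had 41.5, 83.9, 24.5 and 99.1 RPKM in adult trachea, 32.7, 47.6, 63.0 and 38.0 in larval trachea and 109, 191, 219.7 and 172 in whole fly. All tracheal values of these genes were below their whole-fly values, and the adult and larval ranges overlapped. Of the exon reads of *mRpS24* 50.4% mapped uniquely, so its level is uncertain.

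The lowest by the same mean were *mRpL37*, *mRpL32*, *mRpS5*, *mRpS30* and *mRpS31*. *mRpL37* had 10.2, 23.5, 3.94 and 22.9 RPKM in adult trachea, 9.13, 15.1, 14.5 and 13.1 in larval trachea and 27.3, 29.5, 31.4 and 11.1 in whole fly. *mRpL32*, whose maturation in yeast and mammals needs a protease of the inner membrane, had 15.2, 18.6, 7.03 and 24.4 RPKM in adult trachea, 7.86, 8.70, 12.5 and 4.17 in larval trachea and 38.9, 24.4, 32.4 and 21.4 in whole fly. *mRpS30*, another protein whose mammalian homologue belongs to the large subunit, had 11.3, 21.6, 15 and 40.9 RPKM in adult trachea, 12.8, 18.6, 21.9 and 22.1 in larval trachea and 36.2, 35.8, 31.8 and 39.9 in whole fly. In these 3 genes the adult values overlapped those of whole fly. *mRpS31* had 15.7, 27.5, 5.39 and 37.4 RPKM in adult trachea, 15.5, 11, 13.9 and 17.5 in larval trachea and 53.0, 33, 34 and 44.5 in whole fly, where only adult replicate 4 overlapped.

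The order of the 3 group means was the same for nearly all members. It was whole fly above adult trachea above larval trachea in 70 of 73 genes, whole fly above larval above adult trachea in 2, and adult trachea above whole fly above larval trachea in 1, *mRpS5*. The adult and larval means are neighbours in this order, and for all but 2 genes their library values overlapped. Over all genes this order was not counted. By limma on log2(RPKM + 0.1), genes at large also fell against whole fly, with medians of -0.37 in adult and -0.87 in larval trachea. The members lay further down, at -1.42 and -1.87. Adult above larval trachea did not hold for most members with an offset for exon length. Of the 73, 53 then had log2 fold changes below 0 (median -0.29, beside -0.15 over all genes).

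The large and small subunits moved together. Large-subunit RPKM summed to 1675, 2092, 839 and 3084 in adult trachea, 1029, 1386, 1513 and 1264 in larval trachea and 4280, 4879, 4646 and 4176 in whole fly. Small-subunit RPKM summed to 938, 1241, 487 and 1728 in adult trachea, 522, 767, 850 and 729 in larval trachea and 2728, 3078, 2917 and 2327 in whole fly. Both sums were lowest in adult replicate 3 among the adult libraries, and both were higher in every whole-fly library than in any tracheal one. The ratio of the large sum to the small sum was 1.69 to 1.79 in adult trachea (1.74 ± 0.0492, SD, n = 4), 1.74 to 1.97 in larval trachea (1.82 ± 0.101) and 1.57 to 1.79 in whole fly (1.64 ± 0.106). These sums follow the symbols. *mRpS18A* (mean 99.0, 56.0 and 351 RPKM in the same order) and *mRpS30*, whose mammalian homologues belong to the large subunit, are counted as small. The small-subunit genes *tko* and *bonsai*, outside the naming rule, are in neither sum. The ratio was not computed with these genes placed otherwise, so its differences between groups may rest on the assignment. The ranges overlapped through whole-fly replicate 4, and the ratio of the geometric mean of a large-subunit gene to that of a small-subunit gene was 0.950 to 1.05, 0.915 to 1.12 and 0.933 to 1.08 in the same order of groups.

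**Figure D2:**
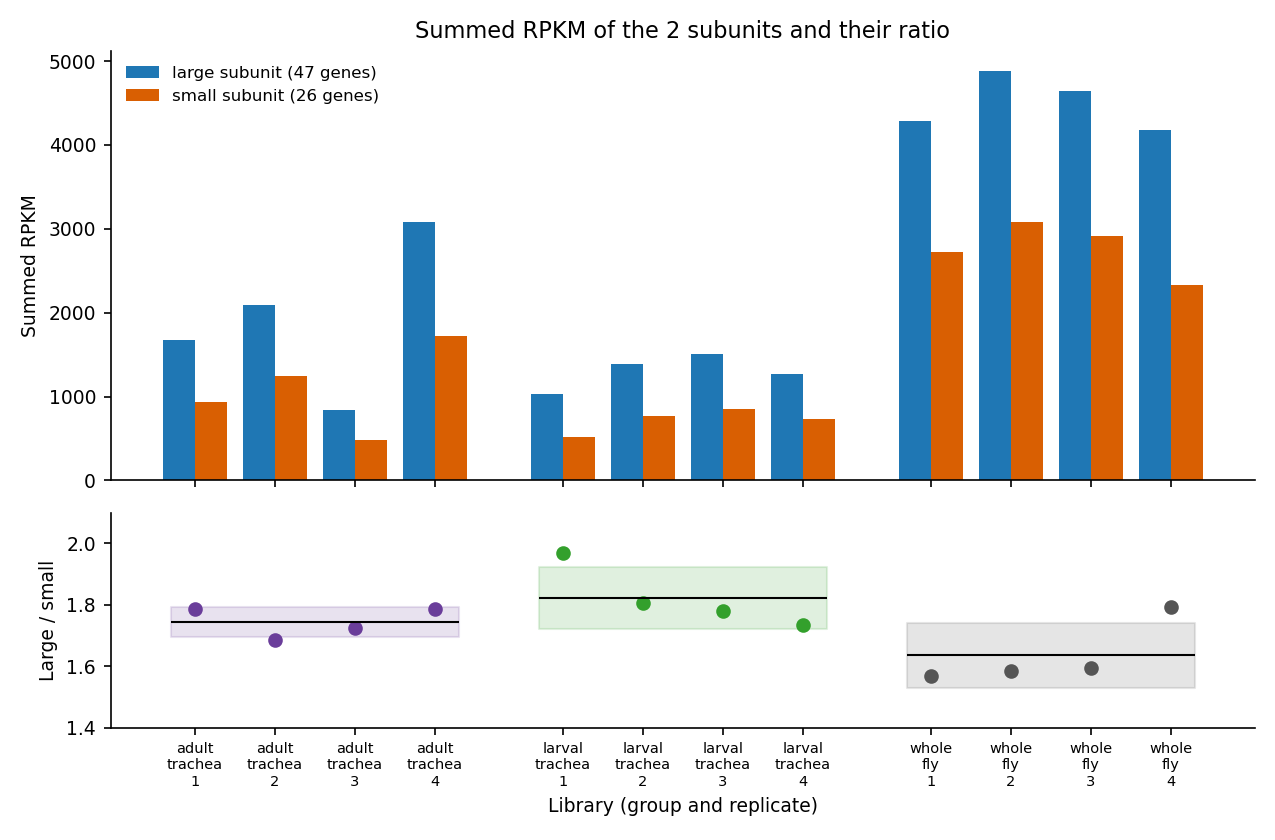
Upper panel, summed RPKM of the 47 large-subunit and the 26 small-subunit genes in each library, with subunits assigned by symbol (*mRpS18A* and *mRpS30* as small). Lower panel, the ratio of the large to the small sum, with the group mean as a line and 1 SD (n = 4) as a band: 1.74 in adult trachea, 1.82 in larval trachea and 1.64 in whole fly, where replicate 4 (1.79) stood above the other 3.

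The comparison of adult trachea with whole fly asked which transcripts set the air-conducting tissue apart from the whole animal. Of the 73 genes, 21 were lower in adult trachea and 0 were higher (edgeR quasi-likelihood F-test, adjusted p under 0.05 and fold above 1.5). That is 28.8% of the members lower, where 7.36% of the 9900 genes tested were lower and 16.1% were higher. The 21 were 12 of 47 large-subunit and 9 of 26 small-subunit genes, lower by 1.88- to 2.68-fold. The median log2 fold change was -0.88 over the members (-0.91 for the large and -0.85 for the small subunit), beside 0.14 over all genes tested, and 68 of 73 lay below 0. At an unadjusted p under 0.05, 36 members were lower and 0 higher, a count not made over all genes in any comparison. DESeq2 called 32 members lower and 0 higher, where it called 1251 lower and 2207 higher over the 9900 genes tested. In RPKM, 45 members had all adult values below all whole-fly values, where 21.4% of the genes tested did, and all 21 were among them.

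**Figure D3:**
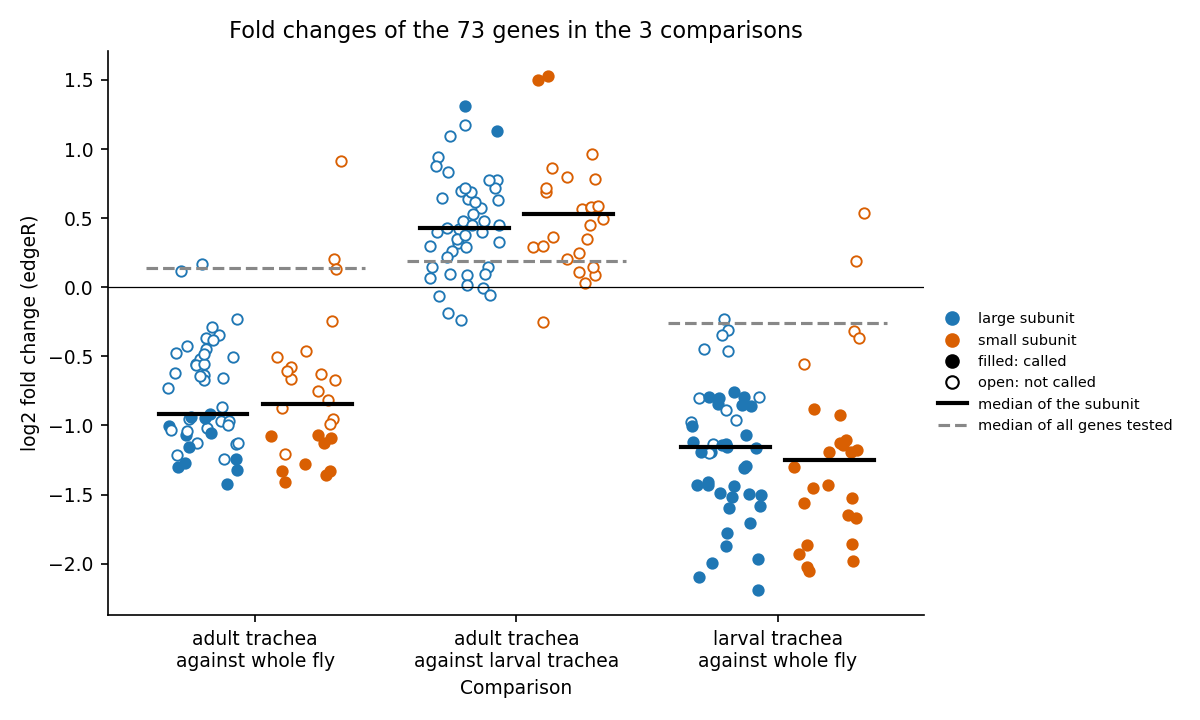
Log2 fold change of the 73 genes in the 3 comparisons, adult trachea against whole fly, adult against larval trachea and larval trachea against whole fly, for the large and the small subunit. Filled points were called, black bars are subunit medians and the dashed line is the median of all genes tested. The member medians were -0.88, 0.45 and -1.19, and those of all genes 0.14, 0.19 and -0.26.

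The largest difference was that of *mRpL15* (FBgn0036990, 3L from 20435110 to 20436209, minus strand), a core protein of the large subunit that has a bacterial homologue. It had 20.2, 48.0, 14.8 and 50.9 RPKM in adult trachea against 114, 139.8, 98.4 and 119 in whole fly, and the groups did not overlap. It fell by 1.42 on the log2 scale in adult trachea (standard error 0.33, edgeR adjusted p = 0.0127). *mRpS18A*, whose values are given above, fell by 1.41 (standard error 0.29, edgeR adjusted p = 0.00782). These were the only 2 members still lower in adult trachea after any single library was left out.

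*mRpS10* fell by 1.36 on the log2 scale (standard error 0.39, edgeR adjusted p = 0.0301). *mRpS6*, a protein of the small-subunit platform, had 13.6, 25.4, 14.5 and 47.4 RPKM in adult trachea against 79.1, 97.3, 101 and 65.6 in whole fly, and fell by 1.33 (edgeR adjusted p = 0.0339). *mRpS18B*, another gene of the S18 family, had 27.3, 43.4, 7.82 and 66.0 RPKM in adult trachea against 102, 118, 116 and 132 in whole fly, and fell by 1.33 (edgeR adjusted p = 0.0440). In each of these the highest adult value was that of replicate 4, and the groups did not overlap. *mRpL4*, which lines the exit tunnel, had 20.6, 14.3, 11.7 and 33.4 RPKM in adult trachea against 45.9, 88.4, 48.2 and 98.4 in whole fly, and fell by 1.32 (edgeR adjusted p = 0.0371). *mRpL39*, a large-subunit protein with no bacterial homologue, had 48.3, 46.7, 12.5 and 78.5 RPKM in adult trachea against 133, 175, 157 and 143 in whole fly, and fell by 1.3 (edgeR adjusted p = 0.0322). *mRpL12* had 73.8, 58.9, 18 and 78.7 RPKM in adult trachea against 125, 211, 211 and 191 in whole fly, and fell by 1.24 (edgeR adjusted p = 0.0347). These groups did not overlap either.

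*mRpS24* fell by 1.28 (edgeR adjusted p = 0.0349) and *mRpL53* by 1.27 (edgeR adjusted p = 0.0291). *mRpL53* overlaps the same-strand gene *CG33155* and had no uniquely mapped exon read (0% of its exon reads), so its value of 22.8, 31.7, 10.9 and 51.5 RPKM in adult trachea against 103, 93.9, 78.6 and 97.0 in whole fly cannot be told apart from reads of that gene. The other members lower in adult trachea were *mRpL3*, which lies near the peptidyl transferase centre, *mRpL22* and *mRpL47* at the exit tunnel, *mRpL20*, *mRpL44*, *mRpL46* and *mRpL52* of the large subunit, and *mRpS14*, *mRpS26*, *mRpS28* and *mRpS29* of the small one. *mRpS29* is the homologue of the mammalian GTP-binding protein DAP3. Of the 21, 10 overlap a gene on the opposite strand, and the sources used here do not say whether the counting used strand.

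The members at the other end were *mRpS5*, *mRpS22* and *mRpL33*, and none of them passed the test. *mRpS5*, a protein near the entry of the messenger RNA, had 20.7, 35.9, 25.3 and 10.2 RPKM in adult trachea against 26, 19.1, 12.6 and 13.3 in whole fly (log2 fold change 0.91, edgeR adjusted p = 0.159). *mRpS22*, particular to mitochondrial ribosomes, had 61.5, 56.2, 27.4 and 50.1 RPKM in adult trachea against 29.2, 67.3, 84.3 and 57.6 in whole fly (0.21, adjusted p = 0.689). *mRpL33*, a small protein with a bacterial homologue, had 29.5, 36.3, 16.1 and 35.7 RPKM in adult trachea against 48.8, 34.2, 32.3 and 27.4 in whole fly (0.17, adjusted p = 0.83). The groups overlapped in all 3 genes. Of the exon reads of *mRpS5* 55.3% mapped uniquely, so its level is uncertain too.

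The count of 21 rested on few libraries: it was 6, 2, 9 and 36 without adult replicate 1, 2, 3 or 4 and 8, 2, 4 and 5 without whole-fly replicate 1, 2, 3 or 4. Without adult replicate 4, 1 member, *mRpS5*, was also higher, and without adult replicates 3 and 4 together 32 were lower. The member median lay below that of all genes tested under each of the alternatives run, by 0.50 on the log2 scale with an offset for exon length and by 0.80 to 1.24 under the others.

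Adult trachea was set against larval trachea to compare the organ before and after metamorphosis. Of the 73 genes, 4 were higher in adult trachea (5.48%) and 0 were lower, where 19.3% of the 9875 genes tested were higher and 8.96% lower. The share of members that were higher was thus under that of all genes. The median log2 fold change was 0.45 over the members (0.43 for the large and 0.53 for the small subunit), beside 0.19 over all genes, and 67 of 73 lay above 0. At an unadjusted p under 0.05, 13 members were higher and 0 lower. DESeq2 called 10 members higher and 0 lower, where it called 2316 higher and 1010 lower over the 9875 genes tested. All adult RPKM values exceeded all larval ones for 2 members, where they did for 19.6% of the genes tested.

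The 4 genes were of both subunits. *mRpS33* (FBgn0038426, 3R from 16436045 to 16436597, minus strand), a protein of the small subunit with no bacterial homologue, had 30.5, 39.5, 27.4 and 72.1 RPKM in adult trachea, 8.01, 10.2, 17.5 and 20.2 in larval trachea and 94.3, 91.7, 85.1 and 85.1 in whole fly. Its 3 groups did not overlap, and it was higher in adult than in larval trachea by 1.53 on the log2 scale (standard error 0.45, edgeR adjusted p = 0.0298). *mRpL1* (FBgn0037566, 3R from 8301440 to 8302770, plus strand), the protein of the L1 stalk, had 36.2, 29, 22.6 and 48.4 RPKM in adult trachea, 13.6, 9.13, 17.8 and 12.4 in larval trachea and 65.1, 83.5, 81.3 and 69.5 in whole fly. Its groups did not overlap either, with a log2 fold change of 1.31 between adult and larval trachea (standard error 0.35, edgeR adjusted p = 0.0176).

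*mRpS2* (FBgn0031639, 2L from 4849439 to 4850419, minus strand), a core small-subunit protein, had 32.8, 46.5, 21.8 and 69.5 RPKM in adult trachea, 10.7, 6.03, 22.2 and 16.8 in larval trachea and 83.2, 102, 86.5 and 55.6 in whole fly. Adult replicate 3 fell just under the highest larval value, and adult replicate 4 within the whole-fly range (1.5 on the log2 scale between adult and larval trachea, standard error 0.44, edgeR adjusted p = 0.0282). *mRpL10* (FBgn0031231, 2L from 203779 to 204782, plus strand), which anchors the L7/L12 stalk, had 40.7, 45.3, 19.0 and 89.5 RPKM in adult trachea, 16.9, 22.8, 17.4 and 23.3 in larval trachea and 140.3, 196, 132 and 99.4 in whole fly. Again only adult replicate 3 reached into the larval range (1.13 on the log2 scale, standard error 0.36, edgeR adjusted p = 0.0409).

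**Figure D4:**
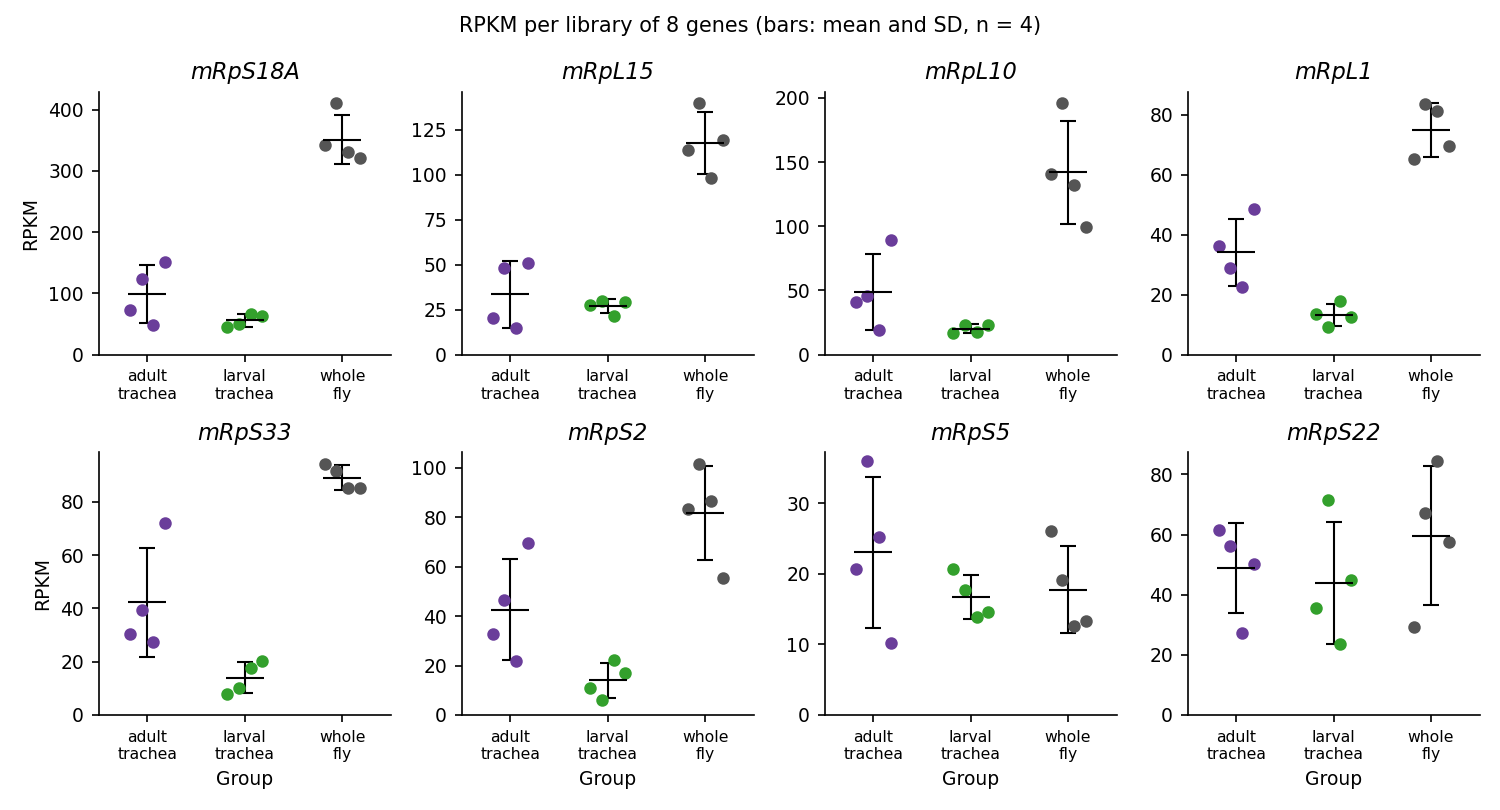
RPKM of 8 members in the 4 libraries of each group, with the mean and SD. *mRpS18A*, *mRpL15*, *mRpL10*, *mRpL1*, *mRpS33* and *mRpS2* were highest in whole fly (mean 351 RPKM for *mRpS18A*), whereas *mRpS5* and *mRpS22* overlapped between the 3 groups.

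All 4 genes overlap a gene on the opposite strand. For *mRpL10* this is *CG11617*, which was itself higher in adult trachea (6.96 ± 5.22 RPKM against 0.251 ± 0.346 in larval trachea, SD, n = 4, edgeR adjusted p = 0.0185), whereas *CG11927* opposite *mRpS2*, *CG14881* opposite *mRpS33* and *nac* opposite *mRpL1* had log2 fold changes of 0.04, -0.23 and -0.61 and were not called. The lowest fold changes were those of *mRpS11*, a protein of the small-subunit platform (-0.25, edgeR adjusted p = 0.657), *mRpL48* (-0.24, adjusted p = 0.781) and *mRpL38* (-0.19, adjusted p = 0.818), both of the central protuberance. *mRpS11* had 24.0, 28.9, 11.2 and 42 RPKM in adult trachea against 32.2, 34.4, 23.2 and 25 in larval trachea. *mRpL48* had 11.8, 27.2, 14.2 and 50.9 RPKM in adult trachea against 31, 12.3, 46.7 and 21.5 in larval trachea, and *mRpL38* had 21.3, 38.3, 9.79 and 79.0 against 40.6, 52.5, 21.4 and 31. In all 3 genes the larval range lay inside the adult range.

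The count of 4 was 7 without adult replicate 3, 1 without adult replicate 4, 1 without larval replicate 1, 2 or 4, and 0 without adult replicates 3 and 4 together. With an offset for exon length 0 members were higher and 1, *mRpS11*, was lower (log2 fold change -1.02, edgeR adjusted p = 0.0362), and the member median was -0.29 beside -0.15 over all genes. Of the 9875 genes tested, 1751 were higher and 1560 lower with that offset.

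Larval trachea against whole fly had the most members called of the 3 comparisons as fitted, but not with an offset for exon length. Of the 73 genes, 56 were lower in larval trachea (76.7%; 35 large and 21 small) and 0 were higher, where 27.4% of the 9508 genes tested were lower and 22.1% higher. The 56 were lower by 1.69- to 4.56-fold, 40 of them remained lower after any single library was left out, and the median was -1.19 over the members (-1.16 for the large and -1.25 for the small subunit), beside -0.26 over all genes. At an unadjusted p under 0.05, 61 members were lower and 0 higher. DESeq2 called 55 members lower and 0 higher, where it called 2683 lower and 2312 higher over the 9508 genes tested. With an offset for exon length, described with the lengths of the genes, the count was 6 lower and 3 higher, where adult trachea against whole fly had 13 lower, and the member median was -0.02, where that of adult trachea was -0.60. Over all genes tested the offset gave 1958 lower and 2319 higher in larval trachea, and 1044 lower in adult trachea. All larval RPKM values lay below all whole-fly values for 68 members, where they did for 39.8% of the genes tested.

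*mRpL10* had the largest fall, 2.19 on the log2 scale (standard error 0.27, edgeR adjusted p = 7.02e-05), and its larval values of 16.9 to 23.3 RPKM were all under the lowest whole-fly value of 99.4. *mRpL11* (FBgn0038234, 3R from 14511838 to 14512691, plus strand), the protein at the base of the same stalk, had 7.34, 13.1, 8.69 and 12 RPKM in larval trachea against 57.0, 64.7, 84.6 and 65.9 in whole fly, and fell by 2.1 (standard error 0.32, edgeR adjusted p = 0.000375). *mRpL12*, the third stalk protein, had 21.9, 36.8, 37.3 and 26.5 RPKM in larval trachea against 125, 211, 211 and 191 in whole fly, and fell by 1.97 (standard error 0.27, edgeR adjusted p = 0.000172). Transcripts of all 3 genes of this stalk and its base were thus under their whole-fly levels in every larval library, as were those of 68 of the 73 members in all.

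*mRpS33* fell by 2.05 (standard error 0.37, edgeR adjusted p = 0.00111), *mRpS18A* by 2.02 (standard error 0.21, adjusted p = 2.73e-05), *mRpS2* by 1.93 (standard error 0.40, adjusted p = 0.00240) and *mRpL1* by 1.87 (standard error 0.27, adjusted p = 0.000246), with the values given above. *mRpS14*, a protein of the small-subunit head, had 11.7, 32.5, 37.0 and 14.4 RPKM in larval trachea against 170.2, 166, 129 and 115 in whole fly, and fell by 1.98 (edgeR adjusted p = 0.00165). *mRpS18C*, the remaining S18 gene, had 11.9, 6.59, 26.8 and 32 RPKM in larval trachea against 140.4, 98.1, 123 and 69.3 in whole fly, and fell by 1.86 (edgeR adjusted p = 0.00881). Neither gene's groups overlapped. *mRpL13* fell by 2.00 (edgeR adjusted p = 0.00143), with 9.33, 10.8, 17.2 and 10.6 RPKM in larval trachea against 95.3, 56.1, 96.7 and 46.3 in whole fly, but it overlaps the same-strand gene *CG10602* and only 9.44% of its exon reads mapped uniquely. With the exon length offset *mRpS33*, *mRpS2*, *mRpS14*, *mRpS18C* and *mRpL13* were not called (log2 fold changes -0.83 to -0.33, edgeR adjusted p = 0.0634 to 0.585), whereas *mRpS18A* and *mRpL1* were.

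The members with the highest fold changes were again *mRpS5* (0.54, edgeR adjusted p = 0.197), *mRpS22* (0.19, adjusted p = 0.706) and *mRpL33* (-0.23, adjusted p = 0.718). *mRpS5* had 20.7, 17.7, 13.9 and 14.6 RPKM in larval trachea, a range inside that of whole fly (12.6 to 26). *mRpS22* (FBgn0039555, 3R from 27916908 to 27918248, plus strand) had 35.7, 71.6, 23.6 and 44.9 RPKM and *mRpL33* 25.5, 12.8, 18.8 and 21.7, and only in *mRpL33* did all larval values lie below those of whole fly. Set against the median member of the same library, *mRpS5* was at 0.757 ± 0.534 in adult trachea, 0.698 ± 0.279 in larval trachea and 0.194 ± 0.0623 in whole fly, and *mRpS22* at 1.35 ± 0.437, 1.75 ± 0.681 and 0.654 ± 0.244 (SD, n = 4). Among the 73 members they ranked 63 and 25 by mean RPKM in adult trachea, 58 and 10 in larval trachea, and 73 and 61 in whole fly.

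The members not called in this comparison were *mRpL2*, *mRpL18*, *mRpL20*, *mRpL24*, *mRpL28*, *mRpL32*, *mRpL33*, *mRpL35*, *mRpL37*, *mRpL48*, *mRpL50*, *mRpL55*, *mRpS5*, *mRpS9*, *mRpS11*, *mRpS22* and *mRpS30*. *mRpL20* had 39.8, 64.5, 27.5 and 80.8 RPKM in adult trachea, 14.3, 31.2, 85.7 and 32.1 in larval trachea and 128, 139, 152 and 129.9 in whole fly. Larval replicate 3 stood above the other larval libraries, and *mRpL20* had a log2 fold change of -1.13 in larval trachea (edgeR adjusted p = 0.0565) and fell by 0.94 in adult trachea (adjusted p = 0.0411). The comparisons of the 2 tracheal groups with whole fly share the 4 whole-fly libraries, and those of larval trachea share the larval ones. For the 4 members that were higher in adult than in larval trachea, the log2 fold changes were -0.61 in adult and -2.05 in larval trachea for *mRpS33*, -0.51 and -1.93 for *mRpS2*, -0.64 and -1.87 for *mRpL1*, and -1.13 and -2.19 for *mRpL10*, each against whole fly, of which the adult values were not called.

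A property the naming rule did not use is length. The members had 327 to 2078 bases of exon with a median of 783, against a median of 2073 over the genes tested between adult trachea and whole fly and 2024 between larval trachea and whole fly. In larval trachea against whole fly, all genes had a median log2 fold change of -1.39 for exon lengths up to 500 bases, -1.02 from 500 to 1000, -0.66 from 1000 to 2000, -0.00 from 2000 to 4000 and 1.03 above, so that short genes in general were lower. Within the same classes the members had medians of -1.19 (6 genes), -1.20 (45 genes) and -1.11 (21 genes). In the class of 500 to 1000 bases 37 of 45 members were lower, where 46.1% of all genes in it were, and in that of 1000 to 2000 bases 15 of 21 members, where 36% were.

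**Figure D5:**
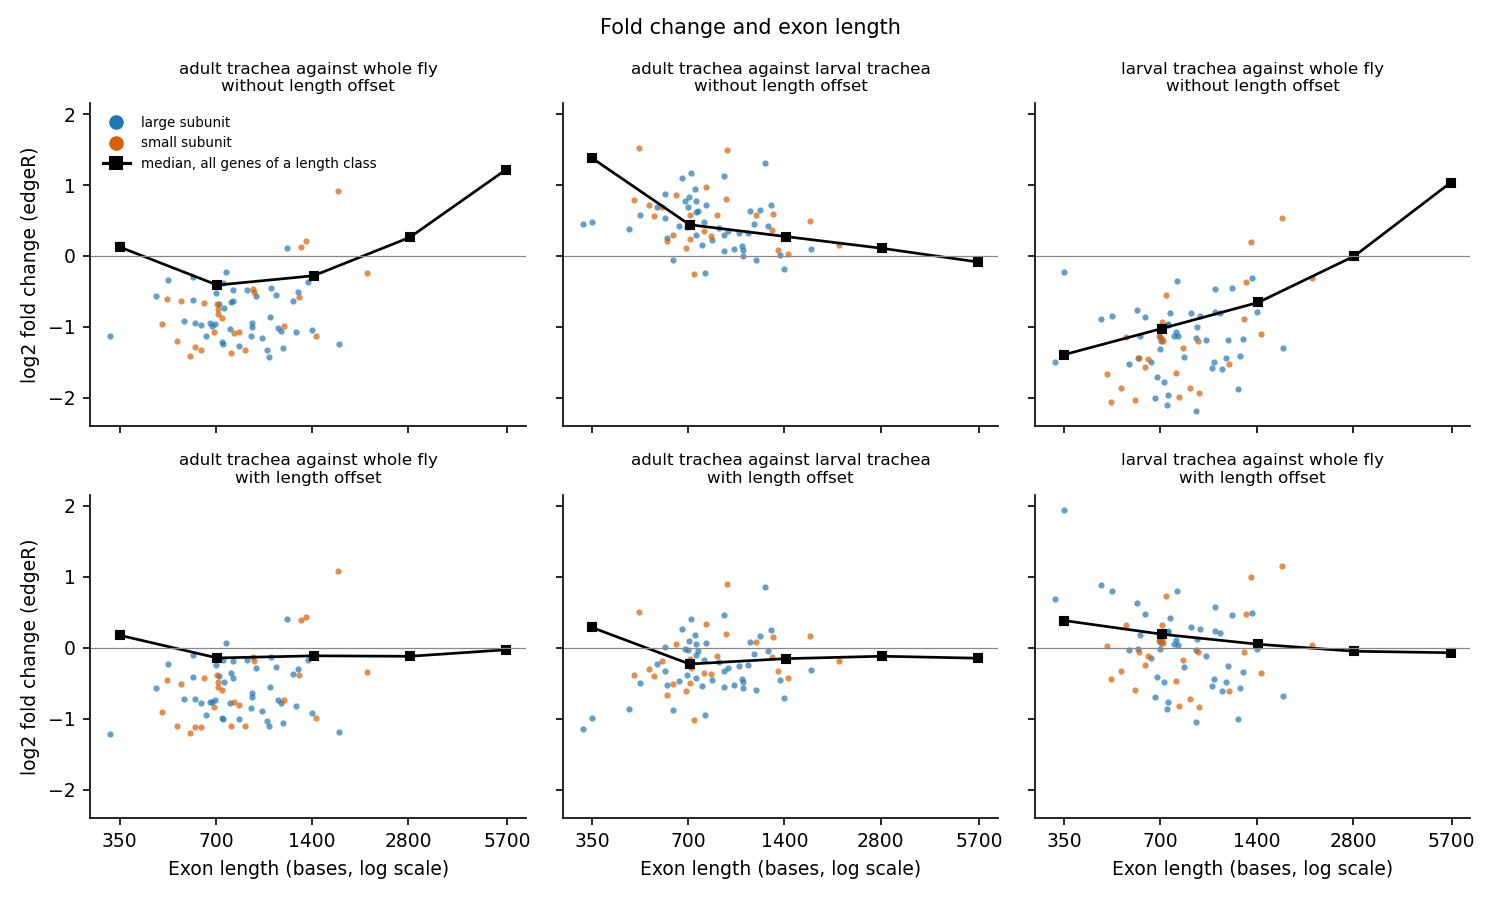
Log2 fold change of the 73 members against exon length in bases (log axis) in the 3 comparisons, as fitted (upper row) and with the exon length offset (lower row). Squares are medians of all genes tested by length class, which in larval trachea against whole fly run from -1.39 for the shortest to 1.03 for the longest genes without the offset.

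With an offset that takes out each library's trend of counts on exon length, 6 members were lower and 3 higher in larval trachea than in whole fly, and the member median was -0.02 beside 0.03 over all genes. Of the 9508 genes tested, 1958 were lower and 2319 higher with the offset, larger shares than those of the members. The 6 were *mRpL10* (-1.05 on the log2 scale, edgeR adjusted p = 0.00574), *mRpL1* (-1.0, adjusted p = 0.00953), *mRpL11* (-0.87, adjusted p = 0.0473), *mRpL12* (-0.76, adjusted p = 0.0353), *mRpS18B* (-0.73, adjusted p = 0.0266) and *mRpS18A* (-0.59, adjusted p = 0.0264). The 3 that were higher were *mRpL33* (1.94, adjusted p = 0.00954), *mRpS5* (1.15, adjusted p = 0.0187) and *mRpL36* (0.80, adjusted p = 0.0484). *mRpL33* has 349 and *mRpL36* 495 bases of exon. Why length and fold change went together was not tested.

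In adult trachea against whole fly all genes had medians of -0.41 for 500 to 1000 bases and -0.28 for 1000 to 2000, smaller falls than in larval trachea. For 2000 to 4000 bases and above 4000 the medians were 0.26 and 1.22. Over all genes tested, fold change and exon length had a Spearman rho of 0.322 in adult and 0.346 in larval trachea, each against whole fly. The members lay under the medians of the classes of 500 to 1000 and 1000 to 2000 bases, at -0.94 and -0.86. In those classes 15 of 45 and 6 of 21 members were lower, where 14% and 10.6% of all genes were. Up to 500 bases 0 of 6 members were lower, where 9.42% of all genes were, and the medians were -0.58 for the members and 0.13 for all genes. With the offset 13 members were lower, 12 of them among the 21, and the member median was -0.60 beside -0.10 over all genes. Of the 9900 genes tested, 1044 were lower and 1220 higher with the offset.

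The genes *tko* and *bonsai* encode the mitochondrial ribosomal proteins S12 and S15 but escape the naming rule. *tko*, the protein of the decoding centre, had 65.8, 63.2, 25.2 and 89.8 RPKM in adult trachea, 21.2, 33.3, 27 and 24.3 in larval trachea and 136, 192, 171 and 154 in whole fly. All tracheal values were below those of whole fly, and adult replicate 3 lay within the larval range. It fell by 0.98 on the log2 scale in adult trachea (standard error 0.30, edgeR adjusted p = 0.0396) and by 2.00 in larval trachea (standard error 0.22, adjusted p = 3.17e-05), each against whole fly, and was higher by 1.08 in adult than in larval trachea (standard error 0.31, adjusted p = 0.0239). With the length offset *tko* was still lower in larval trachea than in whole fly (-1.33, edgeR adjusted p = 0.000414). *bonsai* had 37.1, 45.4, 20.4 and 92.5 RPKM in adult trachea, 30.6, 35.9, 38.0 and 32.6 in larval trachea and 95.4, 82.6, 98.2 and 116 in whole fly. Its adult replicate 4 lay within the whole-fly range, and it fell by 0.90 in larval trachea (standard error 0.22, edgeR adjusted p = 0.00692), a value that was 0.18 with the offset.

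Other genes of mitochondrial translation were read from fixed lists. Of 15 mitochondrial aminoacyl-tRNA synthetases, which charge transfer RNAs, 1 (6.67%, beside 7.36% of all genes tested) was lower in adult trachea than in whole fly (*SerRS-m*, log2 fold change -1.48, edgeR adjusted p = 0.0290) and 0 higher (1 at an unadjusted p under 0.05, and 1 by DESeq2). That count of 1 was 0 without adult replicate 1 or 2 or whole-fly replicate 1 or 3, and 2 without adult replicate 4. Between adult and larval trachea 1 was higher, *PheRS-m*, with 37.3 ± 8.26 RPKM in adult and 14.1 ± 1.5 in larval trachea (SD, n = 4; log2 fold change 1.35, edgeR adjusted p = 0.00407), and 5 were lower (33.3%, beside 27.4% of all genes tested) and 2 higher (13.3%, beside 22.1%) in larval trachea than in whole fly (3 lower without larval replicate 1 or 4 or whole-fly replicate 1, 2 lower when replicate 2 or 3 of whole fly was left out, and 1 higher without larval replicate 1 or 3 or whole-fly replicate 2 or 3). Of 9 mitochondrial translation factors 1 (11.1%, beside 7.36% of all genes tested) was lower in adult trachea than in whole fly, the translocase *mEFG1* (-1.09, edgeR adjusted p = 0.0450). That count was 0 without adult replicate 1, 2 or 3 or whole-fly replicate 1, 2 or 4, and 3 without adult replicate 4. Against whole fly 3 of 9 (33.3%, again beside 27.4% of all genes) were lower in larval trachea: *mEFTs* (-1.91), which recharges elongation factor Tu with GTP, *mEFG1* (-1.43) and *mEFTu1* (-0.94), and 0 were called between adult and larval trachea (edgeR, with 1 at an unadjusted p under 0.05 and 1 by DESeq2).

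Of 12 genes for the upkeep and expression of mitochondrial DNA, 1 (8.33%, beside 7.36% of all genes tested) was lower in adult trachea than in whole fly, *mtSSB*, its single-strand binding protein, with 71.6 ± 53.3 RPKM in adult trachea and 334 ± 40.1 in whole fly (log2 fold change -1.85, edgeR adjusted p = 0.0173). In larval trachea 5 of 12 were lower than in whole fly (41.7%, beside 27.4% of all genes, and 2 with the length offset): *mtDNA-helicase* (-2.27), *mtSSB* (-1.98), the packaging protein *TFAM* (-1.48), *mTerf5* (-1.13) and *mtTFB1* (-1.07). The adult count was 3 without adult replicate 4. Between adult and larval trachea 0 were called (edgeR, 0 at an unadjusted p under 0.05 and 0 by DESeq2), and in no comparison was a gene of this list higher.

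Nuclear genes of oxidative phosphorylation, many of whose protein products join those made by the mitochondrial ribosome, were counted alongside the members. Between adult and larval trachea 55 of 66 were higher (83.3%, beside 19.3% of all genes tested) and 0 lower, with a median log2 fold change of 1.56, beside 4 of 73 and 0.45 for the members (edgeR, with 0 lower at an unadjusted p under 0.05 and 0 by DESeq2). Without adult replicates 3 and 4 the count was 44, and with the length offset 40. Over all genes tested, 1342 of 9193 and 1751 of 9875 were higher in these fits. Between adult trachea and whole fly 13 of 66 were higher (19.7%, beside 16.1% of all genes tested) and 0 lower, with a median of 0.50. By limma on log2(RPKM + 1) 1 was higher and 2 lower (median -0.07), with a replicate block 4 were higher and 1 lower, and with the length offset 22 were higher. Over all genes tested, 1059 were higher and 2007 lower by that limma fit, and 1023 and 427 with the block. With the offset 1220 of 9900 genes were higher. The count of 13 also changed with the libraries, as 2 were higher and 2 lower without adult replicates 3 and 4, and 2 were higher without whole-fly replicate 2 or 3. Without adult replicate 1, 3 or 4 or whole-fly replicate 1 or 4 it was 8, 7, 9, 8 and 8. In larval trachea 50 of 65 were lower (76.9%, beside 27.4% of all genes tested) and 1 higher than in whole fly, with a median of -1.10, close to that of the members. With the offset 7 were higher and 7 lower, beside 2319 and 1958 of all 9508 genes tested. The medians of exon length of the oxidative phosphorylation genes (888 bases) and of the members (783) were similar.

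The sum of the 73 member RPKM stood at 11.9, 15, 6.10 and 10.8% of the summed RPKM of the oxidative phosphorylation genes in adult trachea, 19.8, 21.6, 24.0 and 20.8% in larval trachea and 25.8, 31.6, 29.6 and 24.4% in whole fly. The 3 groups did not overlap, and adult trachea was lowest. Against the summed RPKM of cytosolic ribosomal protein genes the members stood at 1.58, 1.93, 1.64 and 2.66% in adult trachea, 1.29, 1.29, 1.33 and 1.48% in larval trachea and 2.86, 3.31, 3.09 and 2.71% in whole fly, where larval trachea was lowest. No test was run on these shares.

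Of 82 cytosolic ribosomal protein genes tested, edgeR called 1 higher and 3 lower in adult trachea than in whole fly (median log2 fold change -0.26), 2 higher and 0 lower in adult than in larval trachea (-0.07, with 0 lower at an unadjusted p under 0.05 by edgeR and 0 called lower by DESeq2), and 6 higher and 3 lower in larval trachea than in whole fly (-0.11). In the same order, 16.1, 19.3 and 22.1% of all genes tested were higher and 7.36, 8.96 and 27.4% lower. With the length offset 33 of the 82 were lower in adult than in larval trachea, where 1560 of 9875 genes tested were. Also with the offset, 69 were higher in larval trachea than in whole fly, where 2319 of 9508 genes tested were. By limma on log2(RPKM + 1) 15 were lower and 0 higher in adult trachea than in whole fly (median -0.82), where 2007 of 9879 genes were lower. In larval trachea 50 were lower and 1 higher than in whole fly by that fit (median -0.73), where 4208 of 9595 genes were lower. The summed RPKM of the cytosolic ribosomal protein genes averaged 149832 ± 46291 in adult trachea, 149627 ± 26843 in larval trachea and 242695 ± 2837 in whole fly (SD, n = 4). Their direction against whole fly thus depends on the scaling and the offset.

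The 37 genes of the mitochondrial genome held 0 exon reads in the deposited tables and were counted only as gene reads. In CPM, counts scaled to the gene reads of the library, they summed to 19896, 18927, 16916 and 15992 in adult trachea, 5797, 6847, 8021 and 6745 in larval trachea and 17079, 17475, 16313 and 15164 in whole fly. The adult and whole-fly sums overlapped and all larval sums were below them. The large ribosomal RNA, *lrRNA*, the core of the large subunit, was at 2261 ± 672 CPM in adult trachea, 1701 ± 136 in larval trachea and 3661 ± 450 in whole fly (SD, n = 4), and *COX1*, a subunit of cytochrome oxidase translated on the mitochondrial ribosome, at 5775 ± 858, 1764 ± 215 and 3779 ± 443. The small ribosomal RNA, *srRNA*, was at 17.91 to 57.98 CPM in adult trachea, 1.89 to 6.69 in larval trachea and 10.16 to 15.27 in whole fly. All its adult values lay above its whole-fly values, whereas all adult values of *lrRNA* lay below those of whole fly. Ribosomal RNA enters such libraries only as far as oligo(dT) primes it, and these values were not tested.

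The members lie on all major chromosome arms, 21 on 3R, 17 on 3L, 12 each on 2L and 2R and 11 on X. Of the 73, 43 overlap another gene, 42 of them one on the opposite strand and 3 one on the same strand. Fewer than 90% of exon reads mapped uniquely for 6 members: *mRpL53* (0%), *mRpL13* (9.44%), *mRpS24* (50.4%), *mRpS5* (55.3%), *mRpS21* (72.0%) and *mRpS9* (84.9%). Of the members that were lower in larval trachea than in whole fly, 32 of 56 overlap a gene on the opposite strand.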

How the data were processed

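RNA of 12 samples was sequenced by the authors on a NextSeq 500 after oligo(dT)-primed cDNA synthesis with a cap finder and PCR amplification. Mapping was to BDGP6 in the authors' program, CLC Genomics Workbench (version and strand setting not given in the sources used here). The deposited counts are whole-number reads per gene, exon and intron, not normalized. The authors computed RPKM from total exon reads, exon length and total gene reads. The deposited TPM values of the authors were summed over members only.

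Groups came from the sample titles. Another name carried by the files holds letters that could be read as another group, and the titles were followed after a check of marker genes. Total exon reads were fitted per comparison on its 8 libraries with edgeR 4.0.16 (R 4.3.3; TMM, quasi-likelihood F-test). The test covered genes reaching 10 reads in 2 or more libraries, with Benjamini-Hochberg adjustment over all of them, and a call needed adjusted p under 0.05 with fold above 1.5. Alternatives were DESeq2 1.42.0, RLE factors, filterByExpr, no filter, other read classes, all 3 groups in 1 fit, adjusted p alone, a replicate block, limma 3.58.1 on log2(RPKM + 0.1) or log2(RPKM + 1) with genes at 0.5 RPKM or more in at least 2 libraries or without a filter, a lowess offset for exon length, and leaving out libraries. The limma fits took no TMM factors. The fit was tested on simulated data. Floors and intervals of counts cover counting error only. A floor of 3 reads is 0.216 to 0.638 CPM of exon reads in adult trachea, 0.398 to 0.656 in larval trachea and 0.320 to 0.590 in whole fly, under every member's level.

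The members and lists were chosen with earlier results of these data known. Values in every library are given for members called in a comparison (at most the 10 largest changes per direction), the 3 highest and lowest fold changes, the 5 highest and lowest mean RPKM, and the largest CV of each group. Positions of all 73 members equal those of the Ensembl annotation of the same build. Promoter motifs were planned but not analysed here. *LRPPRC2* was not matched. Python 3.11.15, pandas 2.3.3, numpy 2.4.6 and matplotlib 3.10.9 were used.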

Additional observations from a re-analysis of the deposited data

Results flagged for a closer look

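Of 102 groups of 4 libraries examined, 2 had a library far from the other 3 by Dixon's criterion (the gap to the nearest library over the range of the group), and chance alone gives about 1 in 20 such groups. The ratio of large- to small-subunit summed RPKM in whole fly had a gap of 0.895 of its range, from replicate 4 at 1.79 to the others at 1.57 to 1.59. *mRpL38* had 109.8, 110.0, 105 and 66.7 RPKM in whole fly, where replicate 4 stood below the others (0.882 of the range).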

How the results depend on the processing

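Members lower in adult trachea than in whole fly numbered 21, and 32 by DESeq2, 43 by limma on log2(RPKM + 1) and 13 with the exon length offset. Over all genes tested, 729 were lower in the main test, and 1251, 2007 and 1044 under these alternatives in the same order. Members lower numbered 32 without adult replicates 3 and 4, and 2 to 36 when each library was left out in turn (members higher, 0 to 1). With a replicate block the count was 3, and all genes called were 1450 in place of 2323. Without single libraries the genes called ran from 1271 to 3286. Members higher in adult than in larval trachea, 4, were 10 by DESeq2, 2 by limma on log2(RPKM + 0.1) with or without a filter, 0 with the offset (1 lower), 0 without adult replicates 3 and 4 and 1 to 7 in the leave-one-out fits. In larval trachea against whole fly the offset gave 6 lower and 3 higher in place of 56 and 0, and leaving out single libraries 41 to 53 lower and 0 to 1 higher. No other setting moved a count of members or of all genes called by over 1.5 times. The smaller lists moved more. Over the 13 settings that kept all libraries, the count lower in larval trachea than in whole fly ran from 2 to 9 for the 15 aminoacyl-tRNA synthetases (5 in the main test, 2 with a replicate block), from 2 to 6 for the 9 translation factors (3), from 2 to 7 for the 12 genes of mitochondrial DNA and RNA (5), from 7 to 62 for oxidative phosphorylation (50) and from 1 to 50 for cytosolic ribosomal proteins (3). In adult trachea against whole fly the counts lower ran from 0 to 4, 0 to 4, 1 to 3, 0 to 2 and 1 to 15 for the same lists (1, 1, 1, 0 and 3), and the count higher from 0 to 22 for oxidative phosphorylation (13). Between adult and larval trachea the count of oxidative phosphorylation genes higher ran from 40 to 58 (55). The deviations of same-numbered replicates correlated at -0.109 to 0.0416, so these values gave no sign that the numbers pair samples. Replicate 4 of larval trachea against whole fly did correlate best with its own number, at 0.0177. A shared preparation or batch was not tested.

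Of all genes called, 68.6% were higher in adult trachea than in whole fly, and 53.9% with the offset and 34.5 to 49.7% by limma. Between adult and larval trachea the share was 68.3%, and 52.9% with the offset. In larval trachea against whole fly it was 44.7%, and 28 to 28.5% by limma, where the median of all genes was -0.87 to -0.64 in place of -0.26. In adult trachea against whole fly that median was -0.37 to -0.21 by limma in place of 0.14. The cause was not tested.

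Some log2 fold changes turned in sign. For adult trachea against whole fly, *mRpS22* was at -0.25, -0.25 and -0.25 by limma and -0.0067 to 0.35 without single libraries, and *mRpL33* at -0.32, -0.30 and -0.32 by limma. For adult against larval trachea, leaving out single libraries gave -0.67 to 0.13 for *mRpL48*, -0.77 to 0.053 for *mRpL38* and -0.024 to 0.50 for *bonsai*, which was at -0.26 with the offset. For larval trachea against whole fly, *mRpS5* was at -0.13 with uniquely mapped reads and -0.042, -0.042 and -0.042 by limma, *mRpS22* at -0.45, -0.44 and -0.45 by limma and -0.14 to 0.47 without single libraries, and *mRpL33* at -0.40 to 0.067 without single libraries. With the offset there, *mRpL33* was at 1.94 and *mRpL20* at 0.18, and *mRpL36* and *bonsai*, which were called lower without it, were at 0.80 and 0.18 (edgeR adjusted p = 0.0484 and 0.554). The other turned values had not been called.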
